A study of Rattus norvegicus with 27 samples.

Results

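The genes described here encode 7 lysosomal cathepsins (Ctsb, Ctsc, Ctsd, Ctsh, Ctsl, Ctss and Ctsz), the lysosomal thiol reductase Ifi30 and the lysosomal membrane protein Lamp1, 9 genes in all. They were followed in cultured rat oligodendrocyte precursor cells (OPCs), the progenitors of myelin-forming oligodendrocytes. The members were taken by name: every probe set to which the platform annotation gives a listed symbol alone, which was 13 of the 31042 non-control probe sets on the array. Ctsc and Ctsl had 2 probe sets each, Lamp1 had 3, and the other members had 1. Where a gene had several, its brightest is described first.

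The study asked how interferon gamma (IFNγ), a T cell cytokine, acts on OPCs as they differentiate. OPCs were selected from cortices of postnatal rat pups with magnetic beads against A2B5, a surface ganglioside of glial progenitors, and expanded in the mitogen PDGF-AA with the BMP antagonist Noggin. The PDGF group was taken at 0 h. In all other groups PDGF was withdrawn and thyroid hormone (T3), which starts differentiation, was given alone (T3) or with rat IFNγ (T3+IFNγ) for 8, 24, 48 or 96 h, so that 9 groups of 3 arrays, 27 in all, were compared. Each group had 1 array from each of 3 rat donors, the study's methods name SAS SD rats as the source of its rat OPC cultures, and whether a donor was a single pup is not given in the sources used here. PDGF was sampled at 0 h only, so T3, loss of PDGF and time in culture cannot be told apart in comparisons with it, whereas T3+IFNγ and T3 at the same time differed in IFNγ alone. Values are signals on the log2 scale, 1 unit being a doubling, and the median of all values was 5.99. A difference was called at a limma adjusted p under 0.05.

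Cathepsins are the proteases of the acidic compartments that end in the lysosome. Most are cysteine proteases, and cathepsin D is an aspartic protease. In antigen-presenting cells they trim ingested proteins into peptides and degrade the invariant chain (Cd74) that guards the groove of MHC class II molecules. Cathepsin S is the enzyme best known for the last step of that degradation in B cells, dendritic cells and microglia, and cathepsin L for the same step in thymic epithelium. Ifi30, also called GILT, reduces disulfide bonds so that proteins can be cut. Lamp1 lines the lysosomal membrane and protects it. The same compartment also turns over myelin membrane, and acidification by the vacuolar proton pump keeps its enzymes active.

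Promoter sequences (250 bases before to 50 after the start, RefSeq, assembly GRCr8) were found for 8 of the 9 genes, all but Ctsb. They were searched on both strands for GAAANNGAAA (the core of the interferon-stimulated response element), TTCNNNGAA (the STAT-binding gamma-activated site) and CACGTG (an E-box, the core of the CLEAR element bound by TFEB, a regulator of lysosomal genes). The promoters of Ctss, Ctsd and Lamp1 are shown as examples of these letters, and were chosen with the courses below known. Each is printed 5′ to 3′ on the gene's strand with the matches in capitals.
Ctss, chr2:185775146-185775445, plus strand: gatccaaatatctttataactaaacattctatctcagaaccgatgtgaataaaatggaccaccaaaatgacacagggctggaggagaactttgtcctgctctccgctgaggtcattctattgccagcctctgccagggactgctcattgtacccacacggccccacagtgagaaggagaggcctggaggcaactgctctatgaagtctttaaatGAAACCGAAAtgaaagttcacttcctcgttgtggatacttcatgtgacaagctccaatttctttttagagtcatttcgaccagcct
Ctsd, chr1:206968772-206969071, minus strand: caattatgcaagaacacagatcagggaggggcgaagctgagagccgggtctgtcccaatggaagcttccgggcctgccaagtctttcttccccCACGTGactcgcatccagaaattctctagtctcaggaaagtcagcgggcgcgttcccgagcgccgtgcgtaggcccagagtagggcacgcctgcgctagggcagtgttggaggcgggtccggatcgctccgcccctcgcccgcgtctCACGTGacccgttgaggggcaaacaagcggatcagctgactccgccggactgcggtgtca
Lamp1, chr16:83075014-83075313, minus strand: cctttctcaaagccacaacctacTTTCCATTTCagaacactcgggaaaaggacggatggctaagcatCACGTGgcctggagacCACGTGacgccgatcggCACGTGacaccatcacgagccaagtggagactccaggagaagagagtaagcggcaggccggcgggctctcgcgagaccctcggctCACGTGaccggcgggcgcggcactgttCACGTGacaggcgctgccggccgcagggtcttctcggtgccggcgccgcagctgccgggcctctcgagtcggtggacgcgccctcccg
The Ctss promoter held 1 GAAANNGAAA match, from 36 to 27 bases before the start. The Lamp1 promoter held 5 CACGTG matches, at 183, 167, 150, 65 and 38 bases before the start, and 1 GAAANNGAAA match on the opposite strand at 227. The Ctsd promoter held 2 CACGTG matches, at 157 and 10 bases before the start, and the Ifi30 promoter held 1, at 20. None of the matches overlapped. The promoters of Ctsc, Ctsh, Ctsl and Ctsz held none of the 3 motifs, although Ctsc and Ctsz ran like Ctss below and Ctsl rose with T3 like Lamp1. TTCNNNGAA was found in 0 of the 8. Over all 33469 rat promoters of this length, 3.92% held GAAANNGAAA, 8.87% TTCNNNGAA and 6.42% CACGTG. A match describes letters and not a binding site, and a link between the matches and the courses below was not tested.

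The cells carried the markers of their labels. Pdgfra, the PDGF receptor of OPCs, had a log2 signal of 12.74 ± 0.05 (SD, n = 3) in PDGF, and the mean log2 signal of 9 myelin and oligodendrocyte marker genes was 6.40 in PDGF and, at 96 h, 12.46 with T3 against 10.80 with T3+IFNγ. Markers of microglia and macrophages were also present. Of 19 such genes, Cx3cr1, Tmem119, Itgam, Mrc1 and Cd163 had group means under 5.99 in every group, and the other 14 lay above it in at least 1. The summed signal of all 19 genes on the linear scale was 2079 to 4373 in PDGF, 723 to 1015 with T3 at 96 h and 1961 to 8203 with T3+IFNγ at 96 h. The T3+IFNγ arrays of donor 2 at 8 and 24 h stood apart in the 3′ minus 5′ difference of control probe sets, a sign of RNA quality. For Gapdh it was 0.37 and 0.11, against −0.26 to 0.07 in the other 25 arrays, and for actin 1.34 and 1.47, against 0.76 to 1.16.

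**Figure D1:**
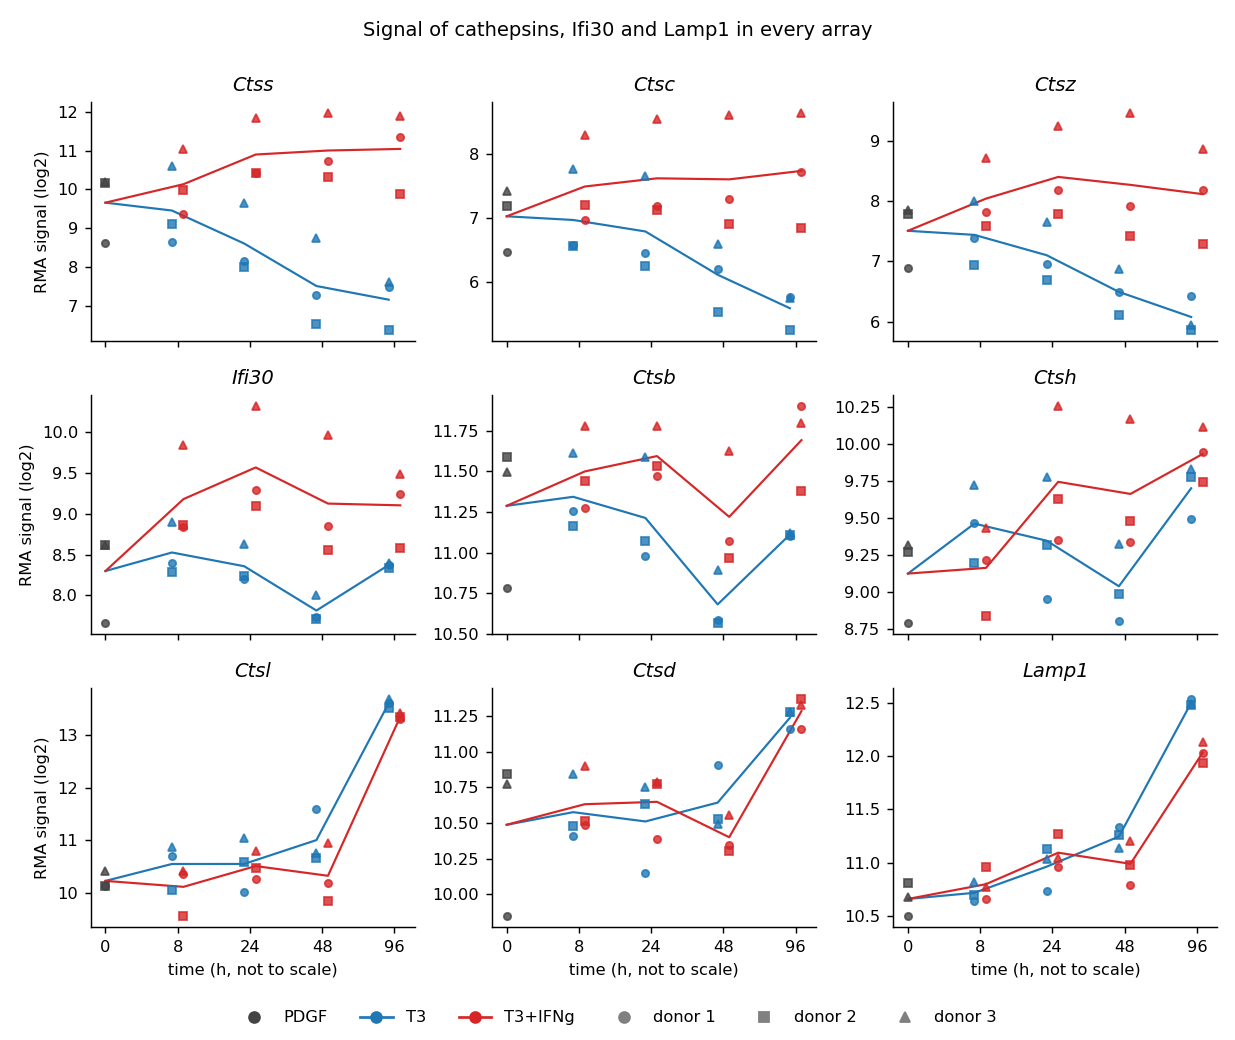
RMA signal (log2, vertical axes on different scales) of the brightest probe set of each member in all 27 arrays against time. Points are arrays with a symbol per donor, lines join group means from PDGF at 0 h. Ctss, Ctsc and Ctsz fell with T3 and were higher with T3+IFNγ at 48 or 96 h, whereas Ctsl, Ctsd and Lamp1 were at their highest at 96 h in both treatments.

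Ctss, cathepsin S, had the largest difference with IFNγ among the members at each time. In PDGF its log2 signal was 8.62, 10.17 and 10.18 in donors 1, 2 and 3. With T3 the 3 donors read 8.65, 9.12 and 10.60 after 8 h, then 8.17, 8.00 and 9.66 after 24 h. By 48 h of T3 they read 7.27, 6.52 and 8.75, and by 96 h 7.49, 6.38 and 7.62. The group mean was lower at each later time in T3. With T3+IFNγ the donors read 9.36, 9.997 and 11.05 after 8 h, then 10.43, 10.43 and 11.84 after 24 h. By 48 h of T3+IFNγ they read 10.72, 10.31 and 11.98, and by 96 h 11.34, 9.89 and 11.90. The treatments overlapped at 8 h and were apart from 24 h on, and donor 3 was the highest of its group in 9 of 9 groups. The difference (T3+IFNγ minus T3, log2) was 0.68 at 8 h (standard error 0.68, limma adjusted p = 0.815), 2.29 at 24 h (limma adjusted p = 0.0338), 3.49 at 48 h (limma adjusted p = 0.000895) and 3.88 at 96 h (limma adjusted p = 0.000278), or 14.7-fold at 96 h. Each of the 3 donors was higher with IFNγ at every time. In fits without a donor block, the call at 24 h was lost without donor 1 or donor 2 (limma adjusted p = 0.12 and 0.225). The difference itself stayed at 2.31 and 2.22. That call was also lost without the 2 T3+IFNγ arrays of donor 2 at 8 and 24 h (limma adjusted p = 0.0596). The calls at 48 and 96 h held without any single donor. In the order of the 9 group means the 4 T3+IFNγ groups stood above PDGF and the 4 T3 groups below it, and every pair of neighbours in this order overlapped.

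Ctsc, cathepsin C, is the dipeptidyl peptidase that activates the serine proteases of immune granules. Its brightest 1368280_at had log2 signals of 5.77, 5.25 and 5.76 with T3 at 96 h and 7.72, 6.85 and 8.65 with T3+IFNγ. The groups did not overlap, and T3+IFNγ was 4.45-fold higher (log2 difference 2.15, standard error 0.52, limma adjusted p = 0.00696; limma adjusted p = 0.0597 without donor 1). The other probe set, 1374778_at, differed by 1.98 at 96 h (limma adjusted p = 0.0125; 0.138 without donor 1) and by 1.67 at 48 h (limma adjusted p = 0.0352; 0.0668 without donor 1 and 0.204 without donor 2). At 48 h 1368280_at differed by 1.50 and was called only with donor as block (limma adjusted p = 0.0645 without the block and 0.000179 with it). At 24 h the probe sets differed by 0.83 and 1.18, again called only with the block (limma adjusted p = 0.0316 and 0.00467, against 0.412 and 0.19 without).

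Ctsz, cathepsin Z or X, a carboxypeptidase known from monocytes, macrophages and microglia, had a like course. With T3 at 96 h its log2 signals were 6.43, 5.86 and 5.94, and with T3+IFNγ 8.19, 7.30 and 8.86. The difference of 2.04 was 4.11-fold (standard error 0.47, limma adjusted p = 0.00502; 0.0514 without donor 1), and the groups did not overlap. At 48 h it was 1.78 (limma adjusted p = 0.0138; 0.0652 without donor 1), and at 24 h 1.30, called only with donor as block (limma adjusted p = 0.098 without and 0.00361 with it).

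Ifi30 differed from these 3 genes in that its difference with IFNγ was smaller at 96 h than at 48 h. Its group mean with T3+IFNγ was highest at 24 h, as was that of Ctsz. At that time the Ifi30 signals were 9.29, 9.09 and 10.32 in the 3 donors, against 8.20, 8.24 and 8.63 with T3. The difference was 1.21 at 24 h (standard error 0.35, limma adjusted p = 0.0316) and 1.31 at 48 h (limma adjusted p = 0.0149), without overlap at either time. At 96 h it was 0.73 and called only with donor as block (limma adjusted p = 0.231 without and 0.037 with it). The call at 24 h was lost without any of the donors (limma adjusted p = 0.108, 0.138 and 0.0553 without donors 1, 2 and 3), and that at 48 h without donor 1 (0.0553) or donor 2 (0.0727).

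Ctsb and Ctsh, cysteine proteases that most cell types make, differed less. Ctsb was higher by 0.54 at 48 h and 0.58 at 96 h, in 3 of 3 donors each time and without overlap, and was called only with donor as block (limma adjusted p = 0.0181 and 0.0119, against 0.106 and 0.0854 without). Ctsh was higher by 0.62 at 48 h, called only with the block (limma adjusted p = 0.00492, against 0.112 without), and at 96 h its difference was 0.23 (limma adjusted p = 0.658).

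Ctsl, Ctsd and Lamp1 did not rise with IFNγ in this test at any time. Ctsl, cathepsin L, had log2 signals of 13.61, 13.51 and 13.68 with T3 at 96 h and 13.29, 13.33 and 13.41 with T3+IFNγ, a difference of −0.26 (standard error 0.29, limma adjusted p = 0.684). These groups did not overlap, yet the fit, which takes its spread from all 9 groups, did not call them. At 48 h the dimmer Ctsl probe set, 1370245_at, was lower with IFNγ by 1.06 (difference −1.06, limma adjusted p = 0.0109), from donor differences of −1.77, −1.42 and 0.01, so that donor 3 showed no fall and the groups overlapped. This call was lost without donor 1 (limma adjusted p = 0.0979) or donor 2 (0.224), and the brighter probe set, with −0.68, was not called (limma adjusted p = 0.151). Ctsd had a difference of 0.05 at 96 h (limma adjusted p = 0.935). Lamp1 was lower with IFNγ at 96 h, with 12.03, 11.93 and 12.13 against 12.53, 12.48 and 12.48, a difference of −0.47 (standard error 0.12, limma adjusted p = 0.0108; 0.144 without donor 2 and 0.0942 without donor 3). The second Lamp1 probe set, 1375629_at, was lower by 0.78 at 48 h with donor as block only (difference −0.78, limma adjusted p = 0.00556, against 0.121 without). The third, 1398816_at, stayed between 3.55 and 4.22 in all arrays, under the median of all values, and is hardly informative.

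Counted over the 13 probe sets, 0 were called with IFNγ at 8 h by limma, with 0 at an unadjusted p under 0.05, where 3.62% of all probe sets were called. With donor as block 0 were called too, where 1078 of all 31042 probe sets were higher and 559 lower. At 24 h 2 were higher (all probe sets: 4.28%), and 5 with donor as block (5.78%). At 48 h 4 were higher (5.64%) and 1 lower (6.35%), and with the block 7 were higher (7.68%) and 2 lower (8.88%). At 96 h 4 were higher (5.51%) and 1 lower (4.58%), and with the block 6 were higher (7.77%) and 1 lower (6.80%). The 4 higher at 96 h came from 3 genes, Ctss, Ctsc and Ctsz. The median difference of the 13 was 0.23 at 96 h, against −0.04 over all probe sets.

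**Figure D2:**
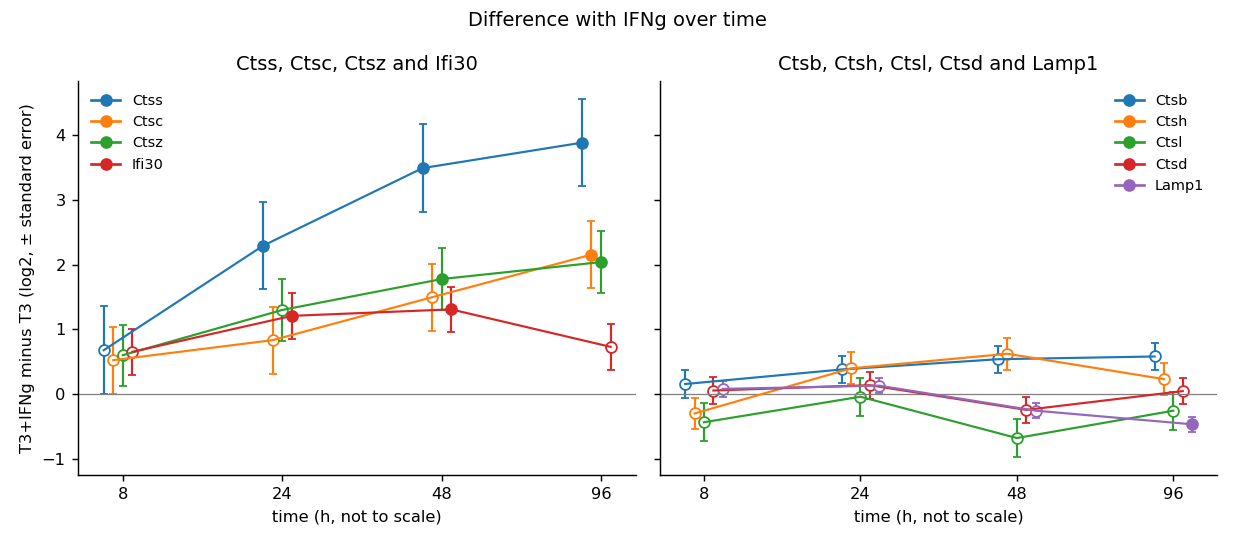
Difference of T3+IFNγ minus T3 (log2, with the standard error of the limma fit) of the brightest probe set of each member at 8, 24, 48 and 96 h. Filled points were called at an adjusted p under 0.05 without a donor block; Ctss went from 0.68 at 8 h to 3.88 at 96 h, while Ctsl, Ctsd and Lamp1 stayed between −0.68 and 0.14.

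Under T3 alone the members went opposite ways. Ctsl had the largest rise. Its log2 signal was 10.14, 10.13 and 10.41 in PDGF. After 48 h of T3 it was 11.59, 10.66 and 10.75, and the 96 h arrays read 13.61, 13.51 and 13.68. This was 10.4-fold over PDGF at 96 h (log2 difference 3.37, standard error 0.29, limma adjusted p = 1.29e-09), and the 96 h arrays lay well above all earlier ones. The other Ctsl probe set rose by 4.32 (limma adjusted p = 7.85e-12), and already by 1.31 at 48 h (limma adjusted p = 0.000494). At 48 h the brighter one rose by 0.77 (limma adjusted p = 0.0431; 0.373 without donor 1 and 0.0729 without donor 2).

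Lamp1 rose with T3 by 1.84 at 96 h, or 3.57-fold (standard error 0.12, limma adjusted p = 1.11e-11), from 10.50, 10.81 and 10.68 in PDGF. Its second probe set rose by 2.03 (limma adjusted p = 8.71e-06), and at 48 h the rises were 0.58 and 1.12 (limma adjusted p = 0.00038 and 0.00691; the latter 0.0604 without donor 3). At 24 h both were called only with donor as block (log2 differences 0.30 and 0.66, limma adjusted p = 0.0323 and 0.00877, against 0.0647 and 0.135 without). Ctsd, the aspartic protease, rose later and less. It went from 9.84, 10.85 and 10.77 in PDGF to 11.16, 11.28 and 11.28 at 96 h, a difference of 0.75 (standard error 0.21, limma adjusted p = 0.00425), and at 48 h its difference was 0.16 (limma adjusted p = 0.623). Ctsh had a difference of 0.58 at 96 h, called only with the block (limma adjusted p = 0.0635 without and 0.00258 with it).

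Ctss, Ctsc and Ctsz fell with T3. Ctss fell by 2.15 at 48 h (limma adjusted p = 0.0156) and by 2.50 at 96 h (standard error 0.68, limma adjusted p = 0.00389), in 3 of 3 donors. Both calls were lost without donor 2, in which the fall was largest (limma adjusted p = 0.269 and 0.107). The fall of 1.05 at 24 h was called only with donor as block (limma adjusted p = 0.307 without and 0.0333 with it). At 96 h Ctsc fell by 1.44 with 1368280_at (limma adjusted p = 0.0273; 0.0503 without donor 1 and 0.181 without donor 2), and its other probe set, with −1.17, was called only with the block (limma adjusted p = 0.0722 without and 0.000991 with it). Ctsz fell by 1.43 at 96 h (limma adjusted p = 0.0166; 0.104 without donor 2). At 48 h both Ctsc probe sets (−0.92 and −0.89) and Ctsz (−1.01) were called only with the block (limma adjusted p = 0.00571, 0.0118 and 0.00727, against 0.194, 0.206 and 0.108 without). Ctsb fell by 0.61 at 48 h (limma adjusted p = 0.0274; 0.35 without donor 2 and 0.0548 without donor 3) and differed by −0.18 at 96 h (limma adjusted p = 0.541), and Ifi30 differed by 0.07 at 96 h (limma adjusted p = 0.895).

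Of the 13 probe sets, 0 were called with T3 against PDGF at 8 h by limma, with 0 at an unadjusted p under 0.05 (7.81% of all probe sets were called). At 24 h 0 were called, with 2 at an unadjusted p under 0.05 (26.4%), and with the block 2 were higher (16.0%) and 1 lower (15.2%). At 48 h 4 were higher (14.9%) and 2 lower (18.5%), with 5 lower under the block (21.1%). At 96 h 5 were higher (20.2%) and 3 lower (22.8%), and the median difference was 0.14, against 0.03 over all probe sets. With the block 6 were higher and 4 lower at 96 h, where 7125 of all 31042 probe sets were higher and 7705 lower. From 8 to 96 h of T3, 6 probe sets rose (17.3%), of Ctsl, Lamp1 and Ctsd, and 3 fell (21.3%), of Ctss, Ctsc and Ctsz. Of these calls, those of Ctss, Ctsc, Ctsd and 1398816_at of Lamp1 were lost without donor 2 (limma adjusted p = 0.081, 0.122, 0.157 and 0.0857), those of Ctsc and Ctsz without donor 1 (both 0.0763), and that of 1398816_at without donor 3 (0.181). With the block 6 rose and 4 fell over that span, where 6212 of all 31042 rose and 7372 fell. The added fall was that of 1374778_at of Ctsc (limma adjusted p = 0.00257, against 0.109 without).

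With IFNγ present the fall of Ctss, Ctsc and Ctsz against PDGF was not seen, and the rise of Ctsl, Lamp1 and Ctsd was. These comparisons share the PDGF arrays with those of T3. At 96 h T3+IFNγ exceeded PDGF by 3.12 for Ctsl (8.68-fold, standard error 0.29, limma adjusted p = 5.27e-09), by 1.37 for Lamp1 (limma adjusted p = 1.56e-09) and by 0.80 for Ctsd (limma adjusted p = 0.00276), against 3.37, 1.84 and 0.75 with T3 alone. Ctsh was higher by 0.81 (limma adjusted p = 0.0102; 0.0791 without donor 1 and 0.0511 without donor 2). Ctss was higher by 1.38 and was called only with donor as block (limma adjusted p = 0.115 without and 0.00356 with it). Its 3 donors differed by 2.72, −0.29 and 1.72, so donor 2 was not higher than in PDGF. Ctsc differed by 0.71 and 0.81 (limma adjusted p = 0.0256 and 0.0177 with the block, 0.322 and 0.241 without), Ifi30 by 0.80 (0.00649 with and 0.0765 without) and Ctsb by 0.40 (0.0376 with and 0.14 without). Ctsz differed by 0.61 and was called in neither fit (limma adjusted p = 0.359 without and 0.0993 with the block).

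Earlier differences from PDGF were few without the block. At 8 h 0 of the 13 were called by limma, with 1 at an unadjusted p under 0.05 (13.1% of all probe sets were called), and with the block Ifi30 was higher by 0.88 (limma adjusted p = 0.00949, against 0.114 without; 7.80% of all were higher). At 24 h 2 were higher (15.2%), Ifi30 by 1.27 (limma adjusted p = 0.00705; 0.0878 without donor 1) and Lamp1 by 0.43 (limma adjusted p = 0.00627; 0.0653 without donor 2 and 0.0581 without donor 3), and 6 with the block (17.5%). At 48 h Lamp1 alone was higher (13.5%), by 0.33 (limma adjusted p = 0.0358; 0.0575 with arrays centred on their medians, 0.0672 without donor 2 and 0.392 without donor 3), and 6 with the block (15.5%). At 96 h 6 were higher (18.0%) and 0 lower (21.6%), and 11 were higher with the block (20.1%). The median difference at 96 h was 0.81, against −0.01 over all probe sets. From 8 to 96 h of T3+IFNγ 6 rose (15.2%), of Ctsl, Lamp1, Ctsd and Ctsh, and 0 fell (17.8%). The rises of Ctsd and Ctsh were not called without the T3+IFNγ arrays of donor 2 at 8 and 24 h (limma adjusted p = 0.0666 and 0.111) or without donor 2 altogether (0.226 and 0.196), and that of Ctsd was not called without donor 3 (0.0529). Ctss differed by 0.91 over that span (limma adjusted p = 0.357).

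**Figure D3:**
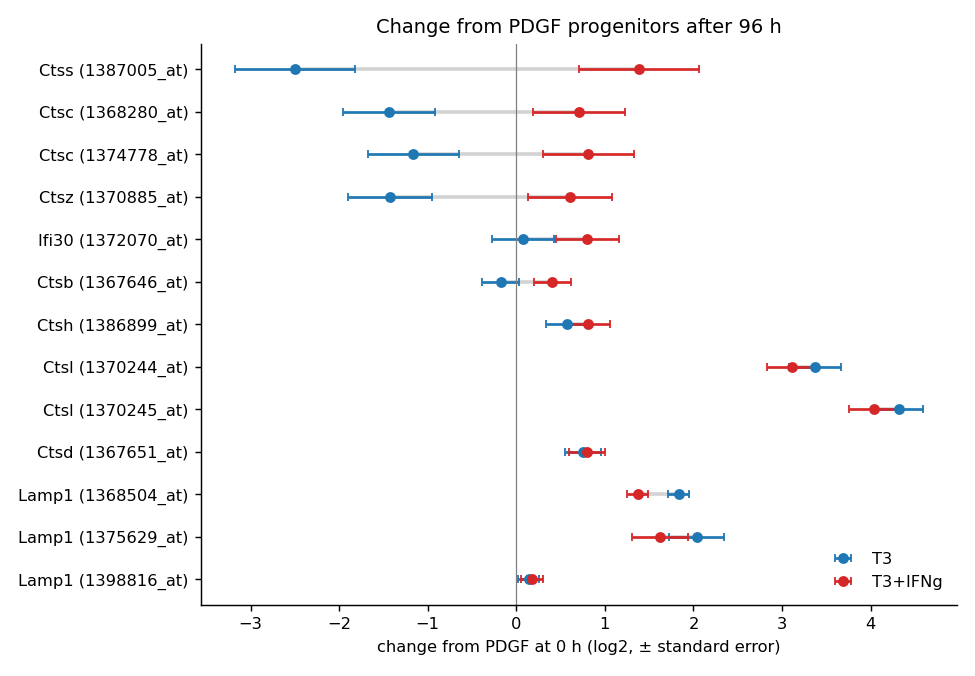
Change from PDGF at 0 h (log2, with the standard error of the limma fit) after 96 h of T3 or T3+IFNγ, for all 13 probe sets. Ctss, Ctsc and Ctsz lie on the left with T3, from −2.50 to −1.17, and on the right with T3+IFNγ, while the 2 Ctsl probe sets rose by 3.12 to 4.32 in both treatments.

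Whether the IFNγ difference itself changed between 8 and 96 h was tested as an interaction. Of the 13 probe sets 0 were called by limma without the block, with 4 at an unadjusted p under 0.05 (2.96% of all probe sets were called in either direction). With donor as block 4 were called higher at 96 h (2.83%) and 1 lower (2.41%). The 4 were Ctss (3.20, limma adjusted p = 0.000474, against 0.0772 without the block), both Ctsc probe sets and Ctsz, and the 1 lower was Lamp1.

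The balance of cathepsin S against cathepsins D and L was followed within arrays, as the log2 signal of Ctss minus that of Ctsd or Ctsl. As each probe set has its own brightness, the change of this difference between groups is read and not its value. Ctss minus Ctsd at 8 h was −1.12 in T3 cultures, −0.50 in those with IFNγ. By 96 h it was −4.08 ± 0.71 (SD, n = 3) in T3 cultures, −0.24 ± 1.09 in those with IFNγ. The change with IFNγ was 0.62, 2.15, 3.73 and 3.83 at 8, 24, 48 and 96 h, and for Ctss minus Ctsl it was 1.11, 2.33, 4.17 and 4.14. It was positive in 3 of 3 donors at every time, and the treatments did not overlap at 24, 48 or 96 h in either balance. In a two-sided exact permutation test p was 0.1 in those 6 comparisons, the smallest that 3 against 3 can give (adjusted p = 0.133 over 8 comparisons), and at 8 h p was 0.4 and 0.3 for the exact permutation test, so this test cannot pass 0.05. The donors' own changes at 96 h were 3.85, 3.41 and 4.24 for Ctss minus Ctsd, and 4.17, 3.68 and 4.56 for Ctss minus Ctsl.

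**Figure D4:**
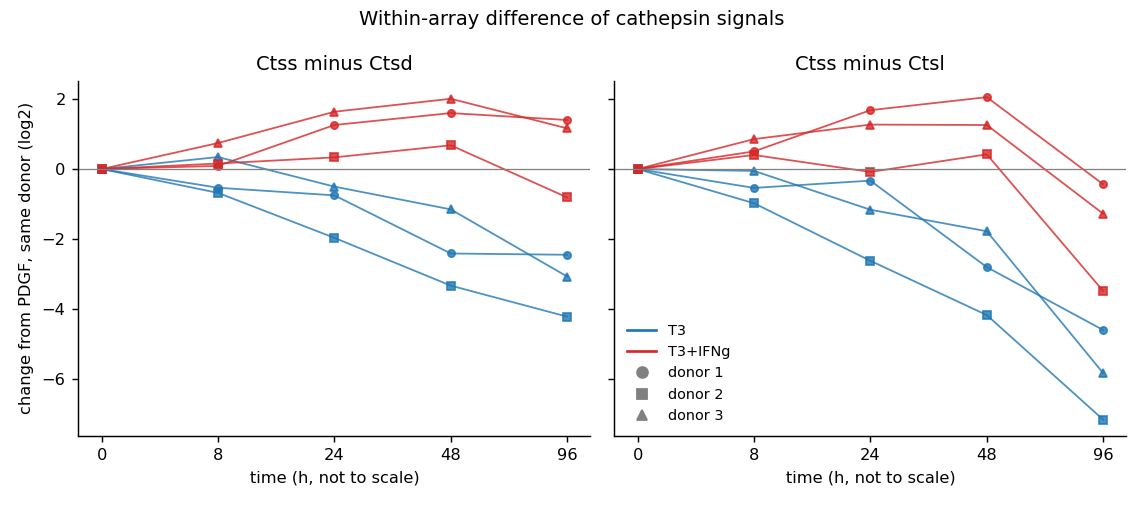
Log2 signal of Ctss minus Ctsd (left) and of Ctss minus Ctsl (right) in each array, given as the change from the PDGF array of the same donor, against time; each line is a donor. All 3 T3+IFNγ lines lie above the T3 line of the same donor at every time, and at 96 h Ctss minus Ctsl had fallen in every donor and treatment.

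Markers of microglia and macrophages moved with Ctss, Ctsc and Ctsz. The mean log2 signal of the 19 marker genes was 6.75 in PDGF, went down with T3 (6.58, 6.12, 5.61 and 5.18 at 8, 24, 48 and 96 h) and was higher with T3+IFNγ (7.003, 7.19, 7.14 and 6.90). Cd68 and Laptm5 stand in this list and in that of lysosomal membrane proteins. At 96 h, of the 24 marker probe sets, 16 were lower and 0 higher with T3 against PDGF, and 10 were higher and 0 lower with IFNγ against T3 (16 and 0 with donor as block). Over all probe sets 22.8% were lower and 20.2% higher with T3. With IFNγ 5.51% were higher and 4.58% lower (7.77% and 6.80% with the block). Over the 9 group means Pearson's r with the marker mean was 0.99 for Ctsz, 0.97 and 0.96 for the Ctsc probe sets, 0.97 for Ctss, 0.79 for Ifi30 and 0.73 for Ctsb, and for Ctsh 0.21, Ctsd −0.37, Ctsl −0.49 and Lamp1 −0.54. These are descriptions over groups from the same 3 donors. In a bulk culture fewer cells of a type and less RNA per cell cannot be told apart, and the part of such cells in the Ctss, Ctsc and Ctsz differences was not tested.

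The marker genes did not all move alike. With IFNγ at 96 h 9 of the 19 genes, by their brightest probe set, were called higher and 0 lower (13 and 0 with donor as block), with differences from −0.07 to 4.16. C1qb, C1qa and C1qc, the chains of complement C1q, were higher by 4.16, 3.58 and 3.49. Ptprc (1.87), Cd68 (1.39), Csf1r (1.22) and Laptm5 (0.75) were called higher only with the block. Trem2 (−0.05), Tmem119 (−0.07), Mrc1 (0.08), Cx3cr1 (0.04), Cd163 (0.09) and Itgam (0.42) were called in neither fit. Of these, Trem2 had means of 5.85 with T3 and 5.80 with T3+IFNγ, and the others lay under the median of all values in every group. Signals this low say little about a difference. Against PDGF, where Ctss differed by 1.38 in the T3+IFNγ cultures at 96 h, the 19 genes differed by −1.45 to 1.95 with a median of −0.03. C1qc (1.95, limma adjusted p = 0.0185) and the microglial receptor P2ry12 (1.39, limma adjusted p = 0.00042) were called higher, and Trem2 (−1.11), Tmem119 (−0.51) and Mrc1 (−1.45) were called lower, with 5 higher and 4 lower under the block. Over all probe sets 18.0% were higher and 21.6% lower in this comparison without the block. C1qb differed by 1.80, so 3 of the 19 exceeded Ctss. With IFNγ at 8 h, where Ctss differed by 0.68, the 19 genes differed by −0.39 to 1.72 with a median of 0.32, and 5 exceeded Ctss. These were P2ry12 (1.72, limma adjusted p = 0.000391), C1qc (1.42), C1qb (1.18), Ly86 (1.12) and C1qa (1.002), of which P2ry12 alone was called without the block and Ly86 also with it (limma adjusted p = 0.0156, against 0.524 without). The marker mean was highest in donor 3 in 8 of 9 groups, as were Ctsz, Ifi30 and the brightest probe sets of Ctsc and Ctsl. For Ctss and Ctsh this held in 9 groups, for Ctsb in 7, for Ctsd in 6 and for the brightest Lamp1 probe set in 3. Donor 3 was thus the highest in most groups for most members, also for Ctsh and Ctsd, whose group means did not follow the marker mean. The other Ctsl probe set, 1370245_at, was highest in donor 3 in 4 groups and in donor 1 in 4. Within groups Ctss varied more than most of the array: its SD pooled over groups was 0.922, larger than that of 99.8% of probe sets, against 0.706 for Ctsc, 0.643 for Ctsz and 0.144 for Lamp1, and a median of 0.158 over all probe sets.

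**Figure D5:**
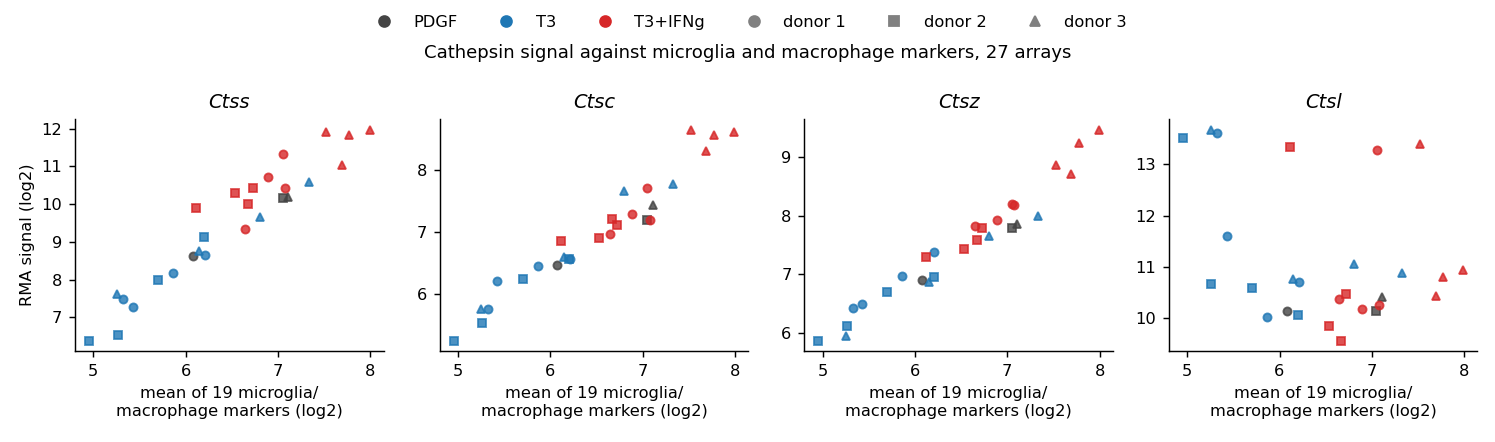
RMA signal (log2) of Ctss, Ctsc, Ctsz and Ctsl (brightest probe sets) against the mean log2 signal of 19 microglia and macrophage marker genes, in all 27 arrays. Colour gives the treatment and symbol the donor; Ctss, Ctsc and Ctsz climb with the marker mean across treatments and donors, whereas the 6 highest Ctsl arrays are those of 96 h at both low and high marker means.

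Most measured probe sets of the proton pump, the hydrolases and the lysosomal membrane rose with T3. Of 25 probe sets of the vacuolar proton pump 21 rose and 0 fell with T3 at 96 h against PDGF. Of 37 probe sets of lysosomal hydrolases 23 rose and 2 fell, of 23 of lysosomal membrane proteins 16 rose and 2 fell, and of 20 of other lysosomal proteases 7 rose and 0 fell. The median differences of these 4 lists were 0.80, 0.55, 0.76 and 0.15, against 0.03 over all probe sets, of which 20.2% rose and 22.8% fell. Among sorting receptors and regulators, 16 of 35 rose and 3 fell. Tfeb, the regulator of lysosomal genes, was higher by 0.90 with T3 than in PDGF (limma adjusted p = 0.00014).

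With IFNγ against T3 at 96 h, 6 of the 140 probe sets of these 5 lists were higher (4.29%) and 10 lower (7.14%), against 5.51% and 4.58% of all probe sets. With donor as block 14 were higher and 14 lower, 10% each, against 7.77% and 6.80% of all. Without the block the proton pump had 1 probe set higher and 1 lower, the hydrolases 3 and 3, the membrane proteins 1 and 2, the other proteases 1 and 1, and the sorting receptors and regulators 0 and 3. With donor as block these were 2 and 2 for the pump, 4 and 4 for the hydrolases, 5 and 3 for the membrane proteins, 2 and 1 for the other proteases and 1 and 4 for the sorting receptors and regulators. The largest falls were those of Sort1, a sorting receptor for lysosomal enzymes (−1.25 and −1.15 in 2 probe sets), Galc, which breaks down the myelin lipid galactosylceramide (−1.01), Scarb2, the receptor that carries glucocerebrosidase to lysosomes (−0.98), and Dpp7, a lysosomal dipeptidyl peptidase (−0.57). Arsa, the sulfatase that acts on the myelin lipid sulfatide, was lower in both of its probe sets (−0.43 and −0.33), Atp6v0b, a membrane subunit of the pump, by −0.54, the lysosomal channel Mcoln1 by −0.33 and Tfeb by −0.54. Higher with IFNγ were the cathepsin Ctso (0.90), Grn, the precursor of the lysosomal granulins (0.81), the acid ceramidase Asah1 (0.73 and 0.40), the membrane protein Tmem192 (0.48) and the pump subunit Atp6v1b2 (0.29).

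Genes of class II presentation and some protease inhibitors rose with IFNγ. Of 11 probe sets of cathepsin and granule protease inhibitors 5 were higher and 1 lower at 96 h, against 5.51% and 4.58% of all probe sets. Serpinb1a, which inhibits neutrophil serine proteases and cathepsin G, was higher by 3.98 and 2.72 in its 2 probe sets, and Serpinb9, the granzyme B inhibitor, by 3.02 and 2.49. Cst7, cystatin F, an inhibitor of cathepsin C made by immune cells, was higher by 0.58 from a mean of 3.91 with T3, and Cst8 was lower (−0.46) from 3.98, both signals far under the median of all values. Of 14 probe sets of class II presentation 12 were higher and 0 lower. RT1-Da, a class II alpha chain, was higher by 6.59, RT1-Ba by 5.11 and 4.83, and Cd74, the invariant chain, by 6.08. With IFNγ, 10 of the 14 were already higher at 8 h. At that time 0 of the 13 member probe sets were called, a count near the 3.62% called over all probe sets.

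Other cell-type lists gave values beside these. With IFNγ at 96 h 0 of 16 myelin probe sets were higher and 7 lower, among them Mal (−4.94), Opalin (−3.68) and the 3 probe sets of Mobp (−2.60, −2.27 and −2.08), and of 9 OPC probe sets 2 were higher, Pdgfra (0.95) and Cspg5 (0.92). Of 14 astrocyte probe sets 1 was higher (Aldh1l1, 1.50) and 1 lower (Fgfr3, −0.63), and of 14 neuronal ones 4 were higher, of Nefm (2.06), Nefl (1.83 and 1.33) and Tubb3 (1.80). Of 11 T cell probe sets 3 were higher, 2 of Cd8a (1.57 and 1.37) and 1 of Cd8b (0.97), and 1 was lower, of Cd3g (−0.27), and of 14 probe sets of vascular cells and fibroblasts 0 were called by limma with or without the block. With donor as block 3 OPC probe sets were higher and 1 lower, 1 astrocyte probe set higher and 2 lower. Of the T cell probe sets 5 were then higher and 1 lower, and the myelin and neuronal counts did not change.

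The genes whose 9 group means ran most like those of each member are given with Pearson's r, as a description. For Ctss they were Ctsc (r = 0.995), C1qb (0.992) and C1qa (0.989), for Ctsz they were C1qa (0.994), Ly86 (0.991) and Ctsc (0.990), and for Ctsc they were Ctsz (0.986), Ctss (0.978) and Aif1 (0.973), the last a microglial calcium-binding protein. For Ctsl they were Agtrap (0.996), Car14 (0.994) and Kndc1 (0.992), and for Lamp1 they were Dpp7 (0.996), Fam174a (0.995) and Gpr37 (0.992), a receptor of oligodendrocytes. Ctsd ran most like Hexa (0.984), a lysosomal hexosaminidase subunit, Slc39a3 (0.979) and Sdf4 (0.977). Ctsb was nearest to Plin2 (0.953), Mon1a (0.947) and Bcl6 (0.939), Ctsh to Cd82 (0.956), Smpdl3a (0.942) and Synj1 (0.938), and Ifi30 to Hivep2 (0.990), Smim3 (0.988) and P2ry12 (0.973).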

How the data were processed

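Total RNA of the 27 cultures was hybridised to single-colour Affymetrix rat arrays. The authors summarised the deposited values by RMA (background correction, quantile normalization, 1 log2 signal per probe set), and their notes name limma, both without a version. Values ran from 2.28 to 14.5 and array medians from 5.95 to 6.03, so the log2 values were used as deposited, with no filter. Of 31099 probe sets 57 are controls. The platform annotation names 1 gene for 20832, several for 436 and none for 9831, and no member shares a probe set with another symbol.

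In R 4.3.3 the means of the 9 groups were fitted jointly with limma 3.58.1, with eBayes and Benjamini-Hochberg adjustment over the 31042 non-control probe sets within each comparison (threshold 0.05). Python 3.11.15 with pandas 2.3.3, SciPy 1.17.1 and matplotlib 3.10.9 made the tables, exact permutation tests and plots. The fit was also run on simulated data, with a pass rule for the fit with donor as block only. Groups came from the labels. The donor number pairs the arrays, as a number marks the same donor. Deviations from the group means correlated over probe sets with a median r of 0.295 within donors. Between donors it was −0.151, which is no separate observation, because deviations from a group mean cancel over its donors. The fit with donor as block is therefore given for the members where it changes a call or a count. For the other gene lists it is given for some counts only. Alternatives were donor as block, median centring, probe sets with 1 symbol, the brightest probe set per gene, a filter on low values, a trended prior, and leaving out donors or the T3+IFNγ arrays of donor 2 at 8 and 24 h. All but the first were fitted without the block, so every value given without a donor ignores the pairing.

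The members and gene lists (other lysosomal proteases, cathepsin inhibitors, lysosomal membrane proteins, proton pump, hydrolases, sorting receptors and regulators, class II presentation, and markers of 7 cell types) were chosen with earlier results of these data known. The text names all members, up to 3 genes of each list with the largest called difference with IFNγ at 96 h and any called against most of its list, and the 3 genes most correlated with each member over the 9 group means. Values of single markers beside a result were chosen after they were seen. The 3 arrays per group limit the precision.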

Additional observations from a re-analysis of the deposited data

Results flagged for a closer look

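The difference with IFNγ was larger at 96 h than at 8 h for 4 member probe sets, and more negative for 1, in the fit with donor as block, and none of the 5 was called without the block. For Ctss the difference between the times was 3.20 on the log2 scale (limma adjusted p = 0.000474 with the block and 0.0772 without). For Ctsc it was 1.63 with 1368280_at (limma adjusted p = 0.00768 and 0.322) and 1.44 with 1374778_at (limma adjusted p = 0.0283 and 0.407). For Ctsz it was 1.44 (limma adjusted p = 0.0424 and 0.347), and for Lamp1 −0.55 with 1368504_at (limma adjusted p = 0.0337 and 0.089). Each had the same sign in 3 of 3 donors.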

How the results depend on the processing

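All 50 calls of member probe sets kept their direction and their call with donor as block, which made 88 in all, and 22 of the 50 held without each single donor. Calls were lost without donor 1 in 15 cases, donor 2 in 21 and donor 3 in 8. These fits had fewer arrays and no donor block, so a lost call alone does not show that a result rests on a single donor. Donor as block moved the counts with IFNγ to 5 higher at 24 h and to 6 higher at 96 h. For 48 h of IFNγ the block gave 7 higher with 2 lower. Against PDGF, T3 then had 2 rises with 1 fall at 24 h, and 5 falls at 48 h. By 96 h of T3 the block counted 6 rises beside 4 falls. Between 8 and 96 h of T3 the falls went to 4. Counts of T3+IFNγ against PDGF moved to 1, 6, 6 and 11 higher at 8, 24, 48 and 96 h. The interaction moved to 4 higher and 1 lower. Without the 2 T3+IFNγ arrays of donor 2, 1 was higher with IFNγ at 24 h and 1 with T3 at 24 h, and the filter on low values and the trended prior each gave 1 higher with T3 at 24 h. With the brightest probe set per gene, 0 were lower with IFNγ at 48 h, 2 and 3 higher with T3 at 48 and 96 h, and 3 from 8 to 96 h of T3, since fewer probe sets are counted. Median centring gave 0 higher with T3+IFNγ at 48 h. Over the fits leaving out a donor, the counts with IFNγ ran from 0 to 1 higher at 24 h, from 1 to 5 higher and 0 to 1 lower at 48 h, and from 1 to 4 higher and 0 to 1 lower at 96 h. With T3 they ran from 0 to 3 lower at 48 h, 0 to 4 lower at 96 h and 1 to 3 lower from 8 to 96 h. With T3+IFNγ against PDGF 1 was higher at 24 h in each of these fits, and at 48 h 0 to 1 were higher and 0 to 1 lower. Other causes of these moves were not tested.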
